A study of Mus musculus with 64 samples.

Results

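Cytosolic ribosomal protein genes were followed in total RNA of isolated mouse microglia, the resident macrophages of the brain. Members were the protein-coding genes of the GENCODE M21 annotation whose symbol is Rpl or Rps followed by a digit, together with Rpsa, Rplp0, Rplp1 and Rplp2, without the Rps6k kinases and without symbols holding -ps. The rule found 86 genes among the 49671 of the count table, 52 named for the large subunit and 34 for the small subunit, on 19 chromosomes. All libraries came from male C57BL/6 mice, given as C57BL6/N and 9 to 10 weeks old in the study's methods, held under a reversed light-dark cycle. Cells were dissociated in the cold and taken with magnetic beads against CD11b, a surface protein that other myeloid cells carry too. The 64 libraries fall into 16 groups of 4, given by region (Hippocampus or Frontal_cortex), phase (Day or Night) and condition (Soci, Cogn, Ctr0 or Ctr1). The study took microglia at a single time in the light phase and a single time in the dark phase. Day and Night therefore stand for these times, and no course within a phase is seen. What the 4 conditions were is not given in the sources used here, so they stand as names. No source says whether the libraries of a group came from separate animals, and p-values then measure the spread between libraries, which may be technical.

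The cytosolic ribosome has a small subunit, which decodes the messenger RNA, and a large subunit, which forms the peptide bonds, and each is built from ribosomal RNA and many small proteins present in about equal amounts. The mRNAs of most of these proteins begin with a C followed by a run of pyrimidines, the 5′ terminal oligopyrimidine (TOP) tract, through which the kinase mTOR adjusts their translation. The counts used here measure the mRNA and not its translation.

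The start of the transcript is shown for 4 members that carry the tract at the annotated start base and 2 that do not, chosen because these genes return in the comparisons below. Each line holds 15 bases before the start and 15 from it, in the sense of the gene, from the RefSeq promoter table of build GRCm38.p6. Capitals mark the run of pyrimidines that begins with C at the start base.
Rps6: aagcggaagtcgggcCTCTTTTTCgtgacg
Rpl38: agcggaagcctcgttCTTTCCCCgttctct
Rpl15: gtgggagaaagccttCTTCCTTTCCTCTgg
Rpl28: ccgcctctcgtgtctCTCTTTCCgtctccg
Rpl5: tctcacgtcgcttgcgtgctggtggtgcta
Rpl7l1: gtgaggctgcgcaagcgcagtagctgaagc
In the order printed, the windows lie at chr4:86857353-86857382 (minus strand), chr11:114668565-114668594 (plus), chr14:18270972-18271001 (minus), chr7:4792950-4792979 (plus), chr5:107900513-107900542 (plus) and chr17:46782642-46782671 (minus). A C followed by at least 4 further pyrimidines stood exactly at the start base in 14 of 78 promoters of the 66 members found in the table (17.9%), against 823 of all 32851 promoters (2.51%). The annotated start is not always the base where transcription begins, so a window without capitals says only that no such run stands at that base. The letters CCGGAAG, on either strand, occurred in the 250 bases before to 50 after the start in 34.6% of the members' promoters and in 8.86% of all. The letters GGGCGG, likewise on either strand, occurred in 60.3% and 35.7%.

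Library totals ran from 10156071 to 84472229 counts, and the noncoding locus Gm26917, which holds ribosomal RNA reads, took between 19.2% and 52.2% of them. The 86 members held 0.329% of all counts. In every library 77 of them had more than 50 counts. Markers of microglia were present throughout, with a summed level over 16 genes of 14490.5 to 30832 CPM and no marker at 0. CPM is the usual unit of a gene's count over its library size, here after scaling by TMM (the trimmed mean of M-values) with 1 scale over all 64 libraries, and it is not divided by gene length unless written per kb. Replicate libraries differed by more than counting noise in all 96 pairs compared, so each was kept as its own replicate.

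Per kilobase of annotated exon, Rplp1 stood far above the rest, with a median over the 64 libraries of 150.1 CPM per kb and a range of 99.0 to 236. Rplp1, Rplp0 and Rplp2 form the stalk of the large subunit, which recruits the elongation factors. Rplp0 followed among the large subunit genes with a median of 56.4 CPM per kb, then Rpl4 with 48.4 and Rpl36 with 47.8, whose ranges overlapped. Rplp2, the third stalk protein, had a median of only 18.2 CPM per kb, although the stalk holds as much of it as of Rplp1. Among the highest genes of the small subunit were Rps4x with a median of 71.8 CPM per kb and Rps3a1 with 57.7. Over all members, the mean level per kb had a median of 16.5 among the 52 large subunit genes and of 20.7 among the 34 small subunit genes. These lengths are the union of all annotated exons of a gene, retained introns included, so a gene with long minor transcripts has a lower value.

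**Figure D1:**
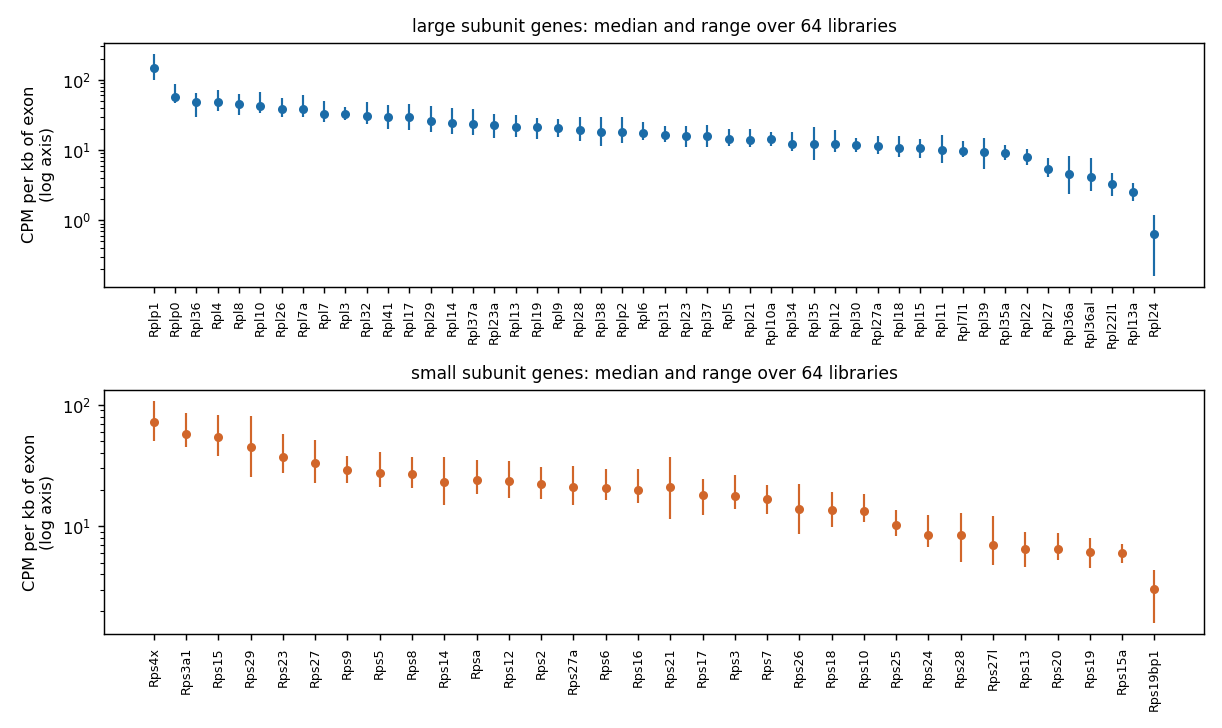
Level of ribosomal protein genes above 0.5 CPM per kb, as the median (point) and range (line) over 64 libraries, on a log axis in CPM per kb of annotated exon, with the large subunit above and the small subunit below. Rplp1 stands highest at a median of 150.1 CPM per kb and Rpl24 lowest at 0.637.

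Of the members, 4 were close to silent. Rpl10l, a copy of Rpl10 that spermatogenic cells use, had 1 count in all libraries together. Rpl3l, the copy of Rpl3 found in striated muscle, had at most 5 counts in a library and was at 0 in 41 of 64. Rps27rt had at most 3 counts and was at 0 in 42 libraries, and Rpl39l at most 23 counts and was at 0 in 22 libraries. A count of 0 allows up to 3 counts, so in the libraries at 0 low expression of these copies was not detectable at this depth. They did not pass the count filter in either region, nor did Rpl24 in the day-night fit of the frontal cortex.

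Other copies were expressed beside their parents. Rpl22l1 reached a median of 3.24 CPM per kb against 8.07 for Rpl22, an RNA-binding protein of the large subunit. The intron-poor copy Rpl36al had 4.09 CPM per kb, close to the 4.59 of Rpl36a on the X chromosome, and their ranges overlapped widely. Rps27l, a copy of Rps27 known as a target of p53, had 7.05 CPM per kb against 33.3 for Rps27. Rpl7l1 had 9.85 CPM per kb against 32.9 for Rpl7. Rps19bp1, which the symbol rule takes in although its product binds Rps19 and is not a subunit, had 3.03 CPM per kb.

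Counting limits the reading of some members. On the same strand, 28 of 86 overlapped an exon of another gene, for the most part small nucleolar or micro-RNAs within them. Rpl24 shares its exons with the readthrough gene Gm28037 and had only 2 to 64 counts in a library, and Rpl13a shares exons with Gm45713 and had 45 to 615. Rpl36al overlaps an exon of Gm49383 and had 36 to 548. The low values of these genes may hold only the reads that could be assigned to 1 gene. The 280 rows whose symbol starts with Rpl or Rps and holds -ps, the mark of a named pseudogene, held 0.424% as many counts as the members themselves. Pseudogenes under other names are not in this figure.

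The 2 subunits rose and fell together from library to library. Summed over the 52 large subunit genes, the level ran from 1562 to 2800.1 CPM with a median of 1956, and over the 34 small subunit genes from 1052 to 1895 CPM with a median of 1331. Library 4 of Frontal_cortex Night Soci was lowest in both sums, and library 2 of Frontal_cortex Day Soci was highest in both. The ratio of the small to the large sum stayed between 0.661 and 0.724 with a coefficient of variation of 1.54% over the 64 libraries, against 12.1% for the large sum and 12.5% for the small sum. The scaling of a library and the share of Gm26917 stand in both terms of the ratio and cancel in it.

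Within the 16 groups, 1 shared component held most of the spread. After the mean of its group was taken from each gene's log2 CPM, the first principal component of the 82 members tested held 56.1% of their variance in the hippocampus and 62.7% in the frontal cortex. The same figure over all 16069 genes tested was 30.9% and 26.4%. A single member had a median SD within groups of 0.18 in the hippocampus and 0.21 in the frontal cortex on the log2 scale, less than the 0.23 and 0.24 of all genes tested. The mean of the 82 members still had an SD of 0.14 and 0.17, so averaging over members removed little of their spread. The members are therefore not independent of each other, and a count of members that move the same way is not a count of separate observations.

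The sums were set side by side over the 16 groups. In the hippocampus at night the large subunit sum was 1804 ± 110.3 CPM in Soci, 2015 ± 114 in Cogn, 2049 ± 189 in Ctr0 and 2167 ± 90.01 in Ctr1 (SD, n = 4 each). By day it was 1957 ± 308 in Soci, 2125 ± 229.95 in Cogn, 2064 ± 185 in Ctr0 and 1808 ± 192 in Ctr1. Cortical night libraries held 1841 ± 235 in Soci, 1934 ± 339.7 in Cogn, 1834 ± 225 in Ctr0 and 1849 ± 183 in Ctr1. By day they held 2179 ± 461 in Soci, 2124 ± 201 in Cogn, 1844 ± 143 in Ctr0 and 1974 ± 114 in Ctr1. The lowest and highest of the 16 means, Hippocampus Night Soci and Frontal_cortex Day Soci, were 375 CPM apart, and the latter group alone spanned from 1712 to 2800.1.

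For the small subunit, hippocampal night libraries held 1221 ± 75.4 CPM in Soci, 1369 ± 73.1 in Cogn, 1408 ± 127 in Ctr0 and 1501 ± 58.0 in Ctr1. The day libraries held 1336 ± 227 in Soci, 1448 ± 173 in Cogn, 1407 ± 143 in Ctr0 and 1219 ± 146 in Ctr1. Cortical night means were 1237 ± 155 in Soci, 1326 ± 231 in Cogn, 1251 ± 159 in Ctr0 and 1248 ± 123 in Ctr1, and the day means 1473 ± 309 in Soci, 1447 ± 133 in Cogn, 1234 ± 96.1 in Ctr0 and 1323 ± 74.2 in Ctr1. Some groups stood apart, as groups of 4 can by chance. The pair given next was picked after seeing the values, and how many such pairs chance would give was not worked out. The large and small sums rise and fall together, so the pair standing apart in both is not a separate observation. This pair was not tested on its own. Averaged over the phases, the test among the hippocampal conditions called 0 of 82 members. The hippocampal night libraries of Soci and Ctr1 did not overlap in either sum, at 1709 to 1917 and 2094 to 2294 CPM for the large and 1149 to 1295 and 1430 to 1563 CPM for the small subunit. As a share of all counts, without TMM, the order of these groups was the other way and they overlapped, with 0.192% to 0.240% of counts on large subunit genes in Soci and 0.173% to 0.222% in Ctr1. Gm26917 took 28.9% ± 5.40 of counts in Soci and 43.1% ± 3.57 in Ctr1 (SD, n = 4 each).

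**Figure D2:**
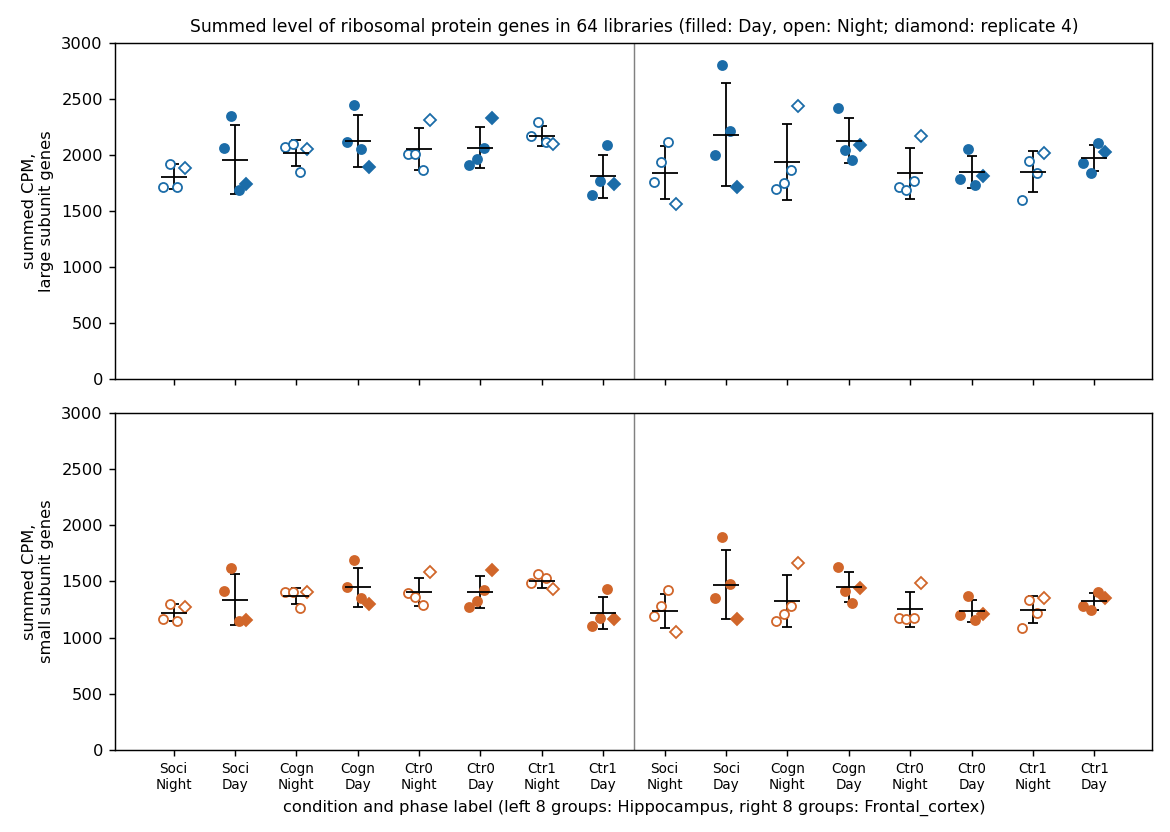
Summed CPM of the 52 large subunit genes (upper) and the 34 small subunit genes (lower) in each of 64 libraries, by condition and phase, with the hippocampus left of the grey line and the frontal cortex right of it; black bars are the mean and SD of 4 libraries, filled symbols Day, open symbols Night, diamonds replicate 4. Both panels show the same ups and downs, from 1562 to 2800.1 CPM for the large and from 1052 to 1895 CPM for the small subunit.

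The first comparison asked whether the genes differed between day and night within a region, with the conditions pooled. In the hippocampus, 3 of 82 members tested were higher in day, Rpl7l1 and Rpl5 among them, and 0 were lower. Of all 15527 genes tested, 23.4% were higher and 18.8% lower in day, so the share of members called was well under the background. The median log2 change, day minus night, was 0.0014 over the 49 large subunit genes and 0.017 over the 33 small subunit genes, against 0.023 over all genes tested. The members had a median SE of 0.070 on this scale, a little below the 0.081 of all genes, and 44 of them had a positive and 38 a negative change. At an unadjusted p under 0.05 there were 6 higher and 0 lower, and DESeq2 called 2 higher and 2 lower.

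Among 81 members tested in the frontal cortex, 12 were higher in day and 0 were lower, 8 of 48 from the large and 4 of 33 from the small subunit. The background was 20.6% of 14975 genes higher and 21.3% lower, so the share of members higher in day, 14.8%, was again below it. The changes were small but leaned one way. The median log2 change was 0.11 over the large subunit genes and 0.097 over the small subunit genes, against -0.018 over all genes tested, and 77 of 81 members had a positive change. The whole set lay between -0.066 and 0.25 on the log2 scale, with a median SE of 0.074. Among all genes tested the median size of change was 0.17, against 0.098 among the members. At an unadjusted p under 0.05 there were 19 higher and 0 lower, and DESeq2 called 16 higher and 0 lower.

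Rpl7l1 (ENSMUSG00000063888, build GRCm38, chr17:46773907-46782672) was past the test in both regions, with the smallest adjusted p of all members in each. It encodes a relative of Rpl7 that has been found with precursors of the large subunit. In the hippocampus its level ran from 30.7 to 40.9 CPM with a median of 35.0 over 16 day libraries, and from 29.2 to 34.8 with a median of 31.9 over 16 night libraries. The groups overlapped, with the day libraries shifted upward. The log2 change was 0.20 (SE 0.034, adjusted p = 2.14e-05). Cortical day libraries ran from 34.2 to 46.3 CPM (median 36.8) and the night libraries from 28.2 to 37.7 (median 32.1), a log2 change of 0.19 (SE 0.045, adjusted p = 0.000837).

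Rpl5, which carries the 5S ribosomal RNA into the large subunit and can hold Mdm2 when not assembled, was the other member past the test in both regions. In the hippocampus its day libraries ran from 51.0 to 66.3 CPM (median 56.6) and its night libraries from 44.3 to 60.8 (median 54.6). The groups overlapped over most of their range, and the log2 change was 0.17 (SE 0.048, adjusted p = 0.00559). Its cortical day libraries ran from 49.1 to 78.6 CPM (median 59.7) and the night libraries from 46.0 to 67.3 (median 55.5), a change of 0.16 (SE 0.062, adjusted p = 0.0406).

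The largest cortical rises among the large subunit genes past the test were those of Rpl7, Rpl18 and Rpl6, structural proteins of the subunit. Rpl7 had a median of 96.3 CPM by day (76.8 to 136) and 82.1 by night (67.5 to 112), a log2 change of 0.23 (SE 0.073, adjusted p = 0.0102). Rpl18 had 43.5 CPM by day (36.3 to 63.8) and 37.1 by night (32.6 to 54.1), a change of 0.23 (SE 0.070, adjusted p = 0.00804). Rpl6 had 56.4 CPM by day (49.2 to 77.8) and 50.3 by night (44.4 to 58.3), a change of 0.20 (SE 0.052, adjusted p = 0.00266). For all 3 the day and night libraries overlapped. Without the libraries numbered 2, Rpl7 and Rpl18 had adjusted p of 0.10 and 0.067, and without those numbered 1 Rpl18 had 0.081. Rpl7a, Rpl4 and Rpl27 completed the large subunit genes past the test, at 0.19, 0.17 and 0.17.

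The largest rise of the small subunit genes past the test in the frontal cortex was that of Rps27l. It had a median of 6.28 CPM by day (4.596 to 9.10) and 5.28 by night (3.89 to 6.84), a log2 change of 0.25 (SE 0.087, adjusted p = 0.0207). Its parent Rps27 had a change of 0.14 (SE 0.083, adjusted p = 0.18), which did not pass. Rps6, the substrate of the S6 kinases, had 33.4 CPM by day (27.7 to 46.5) and 30.8 by night (25.99 to 38.6), a change of 0.17 (SE 0.071, adjusted p = 0.0472). Rps9 had 75.0 CPM by day (59.4 to 95.8) and 66.3 by night (56.7 to 86.2), a change of 0.16 (SE 0.059, adjusted p = 0.0240). Rps3, which with Rps9 lines the entry of the mRNA channel, was past the test at 0.16. Each of the 3 lost its call when the libraries of 1 number were left out, Rps27l and Rps6 for numbers 1, 2 and 3 (adjusted p from 0.057 to 0.26) and Rps9 for numbers 1 and 2 (0.19 and 0.18).

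The stalk proteins did not pass in either region. The cortical log2 changes of Rplp0, Rplp1 and Rplp2 were 0.12 (SE 0.080), 0.13 (SE 0.088) and 0.12 (SE 0.077), with adjusted p of 0.25, 0.25 and 0.24. In the hippocampus they were 0.065, -0.026 and -0.030. Rpsa, also known as the laminin receptor precursor, had 0.0088 in the hippocampus and 0.050 in the frontal cortex. Rps27a, made as a fusion with ubiquitin, had -0.019 and 0.11, and Rpl10, added late at the face where the subunits join, had 0.054 and 0.13. Rpl41, the shortest ribosomal protein, had -0.14 (SE 0.082) and 0.011 (SE 0.092). None of these 4 passed, with adjusted p between 0.19 and 0.94.

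Among the copies, Rpl36al had the largest change of all members in the frontal cortex, 0.25 (SE 0.106, adjusted p = 0.053), which missed the threshold, and 0.19 (SE 0.091, adjusted p = 0.097) in the hippocampus. Rpl36a had 0.17 and 0.069. Rpl22l1 had 0.044 and -0.0033, and Rpl22 0.075 and -0.038, in the frontal cortex and the hippocampus in that order. Rpl3 had 0.023 and -0.074, Rpl39 0.18 and -0.071, Rps4x 0.19 and 0.12, and Rps19bp1 0.22 and 0.079, none past the test. Values of the copies and of their parents were not tested against each other.

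**Figure D3:**
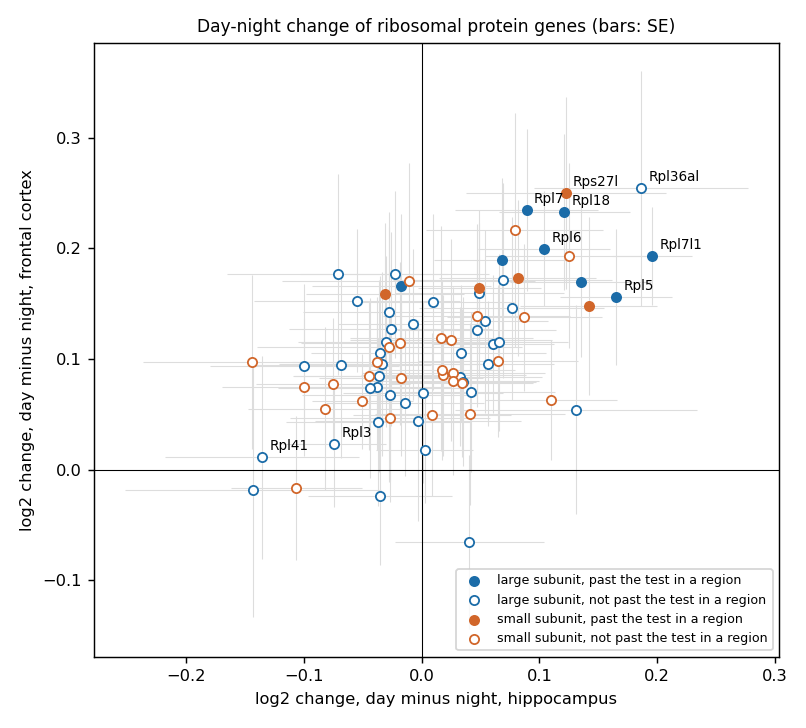
Fitted log2 change, day minus night, of each member tested in the hippocampus (horizontal) and the frontal cortex (vertical), with SE bars; blue is the large and orange the small subunit, and filled points were past the edgeR test in at least 1 region. Nearly all points lie above 0 on the vertical axis (77 of 81 members tested there), while they spread on both sides of 0 on the horizontal axis. Of the 82 members tested in the hippocampus, 44 were above and 38 below 0. Rpl24 is among these 82 but was not tested in the frontal cortex and is not drawn.

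The leaning of the cortical genes did not hold in every set of libraries with the same replicate number. Day minus night of the mean log2 CPM, 4 libraries against 4, had a median over the large subunit genes of 0.25 for the libraries numbered 1, 0.22 for those numbered 2, 0.067 for those numbered 3 and -0.090 for those numbered 4. The small subunit genes gave 0.22, 0.23, 0.062 and -0.098. All 49 large and all 33 small subunit genes were positive for numbers 1 and 2, while 39 of 49 and 29 of 33 were negative for number 4. In the hippocampus the medians were -0.080, 0.038, 0.079 and -0.14 for the large and -0.099, 0.029, 0.075 and -0.15 for the small subunit genes. Fitted on the libraries numbered 4 alone, 0 members were past the test in either region (2 and 1 at an unadjusted p under 0.05), with 118 of 16029 genes in the hippocampus and 0 of 15115 in the frontal cortex past it. Without the libraries numbered 4, 33 of 81 members (40.7%) were higher in day in the frontal cortex against 21.7% of all genes, above the background and not below it as with all libraries. Without those numbered 1, 2 or 3 the members stood at 3.70%, 2.47% and 7.41%, against 16.4%, 13.05% and 16.6% of all genes.

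Rpl7l1 kept its direction in this split, and so did Rpl18. The day minus night value of Rpl7l1 was positive for each of the 4 numbers in both regions. It was 0.21, 0.20, 0.15 and 0.061 in the hippocampus and 0.19, 0.37, 0.14 and 0.079 in the frontal cortex. Rpl18 had 0.050, 0.14, 0.088 and 0.047 in the hippocampus and 0.35, 0.37, 0.18 and 0.033 in the frontal cortex. The smallest adjusted p of Rpl7l1 came from these same libraries, so the split adds no separate observation. Leaving out the libraries of any 1 number kept Rpl7l1 past the test in both regions. Rpl6 also kept its call in the frontal cortex in each of these fits, whereas Rpl5 in the hippocampus lost it in 3 of the 4, without number 1, 2 or 3, with adjusted p from 0.053 to 0.24. Rpl5 in the frontal cortex lost it in the same 3 fits, with adjusted p from 0.061 to 0.21.

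**Figure D4:**
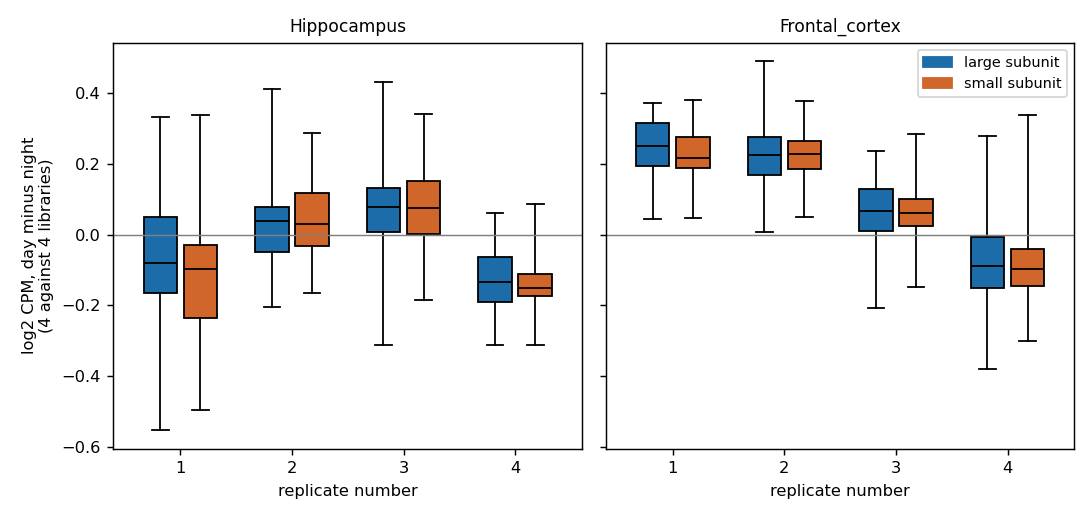
Day minus night difference of mean log2 CPM for libraries of the same replicate number (4 day against 4 night libraries), in the hippocampus (left) and the frontal cortex (right); boxes give the quartiles and median over the 49 large (blue) or 33 small (orange) subunit genes and whiskers the range over genes. In the frontal cortex the medians go from 0.25 for number 1 to -0.090 for number 4 in the large subunit, and both subunits move together throughout.

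Scaling decided the direction in the hippocampus. With library totals alone in place of TMM, 0 members were higher and 9 lower in day there, and 79 of 82 changes were negative or 0, as the median change of all genes went to -0.14. Relative to that shift the members stood at -0.005. In the frontal cortex the same scaling moved the median of all genes to -0.087 and that of the members to 0.025, 0.11 above it, with 0 members past the test. Over all genes, library totals gave 265 higher and 4023 lower in the hippocampus and 656 and 3405 in the frontal cortex, against 3637 and 2913, and 3084 and 3183, with TMM.

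Markers of other cells moved with the phase too. The background was 23.4% of genes higher and 18.8% lower in day in the hippocampus, and 20.6% and 21.3% in the frontal cortex. Of 16 microglia markers, 11 were higher in day in the hippocampus and 8 in the frontal cortex, and 0 lower. Of 10 border macrophage markers 10 and 7 were higher. Neuronal markers were lower in day in 3 of 10 in the hippocampus and 9 of 10 in the frontal cortex, where their summed level ran from 80.5 to 234 CPM by day and 114 to 443 by night. Astrocyte markers were lower in 7 of 8 in each region (325 to 611 CPM by day and 276 to 2469 by night in the frontal cortex), and 1 was higher in the hippocampus. Oligodendrocyte markers were lower in 8 and 5 of 9 and endothelial markers in 5 and 1 of 8. Of 8 neutrophil and monocyte markers, 4 were tested in each region, with 1 higher and 1 lower in the hippocampus and 0 past the test in the frontal cortex. Choroid plexus markers were lower in day in 8 of 8 in the hippocampus, from 1.65 to 915 CPM by day and 11.5 to 2913 by night, and in 0 of the 4 tested in the frontal cortex. No marker was at 0 in all libraries of a phase. The share of counts on mitochondrial mRNAs was also lower by day, at 0.244% to 0.61% (median 0.367%) against 0.449% to 0.903% (median 0.629%) by night in the hippocampus, and 0.209% to 0.481% (median 0.350%) against 0.459% to 1.22% (median 0.667%) in the frontal cortex. The part of these cells and of this share in the day-night values of the ribosomal protein genes was not tested, and in bulk samples fewer cells of a type and less RNA per cell cannot be told apart.

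With TMM, many genes that build and use the ribosome were higher in day in both regions. Of 24 translation initiation factors 15 were higher and 1 lower in day in the hippocampus, and 15 higher and 0 lower in the frontal cortex. Eif4a2, an RNA helicase of the cap-binding complex, had log2 changes of 0.25 (SE 0.053) and 0.29 (SE 0.055) in the 2 regions. Of 33 ribosome biogenesis genes 16 were higher and 0 lower in the hippocampus, and 19 higher and 1 lower in the frontal cortex. Ddx21, a helicase of ribosomal RNA synthesis and processing, had 0.38 (SE 0.043, adjusted p = 2.39e-08) and 0.47 (SE 0.058, adjusted p = 2.85e-07). The background shares of 23.4% and 20.6% higher in day hold for these lists as well. Counts of this and the following lists come from the TMM fits alone and were not made under other scalings. With library totals alone, 265 of 15527 genes were higher in day in the hippocampus and 656 of 14975 in the frontal cortex. The direction given for the lists may therefore depend on scaling.

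Of 14 genes of the mTOR pathway toward TOP mRNAs, 5 were higher in day in the hippocampus and 7 in the frontal cortex, where 1 was lower. In either direction 35.7% and 57.1% of them were called, against 42.2% and 41.8% of all genes tested. Of all genes, 23.4% and 20.6% were higher in day. Eif4ebp1, a repressor of cap-dependent translation, rose by 0.34 (SE 0.083) in the hippocampus, and Deptor, an inhibitor of mTOR, by 0.40 (SE 0.061) in the frontal cortex. Of 11 other TOP mRNAs, which share the tract but encode no subunit, 5 were higher and 1 lower in the hippocampus and 7 higher and 1 lower in the frontal cortex. They included Eif3e and Pabpc1 in the hippocampus (0.21 and 0.19) and Npm1 and Btf3 in the frontal cortex (0.27 each).

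Few calls fell on the elongation factors, the snoRNA host TOP genes and the subunit proteins outside the symbol rule. Of all genes tested, 42.2% were called in either direction in the hippocampus and 41.8% in the frontal cortex. The other TOP mRNAs stood above these shares, at 54.5% and 72.7%, and the mitochondrial ribosomal proteins below them, at 19.5% and 27.6%. Of 6 translation elongation factors 0 passed in the hippocampus, and Eef1a1 alone in the frontal cortex, with a change of 0.25 (SE 0.073). None of 6 snoRNA host TOP genes and none of the subunit proteins outside the symbol rule (Fau and Rack1 among them) passed in either region. Their counts are small, and the difference between these lists was not tested. Of the mitochondrial ribosomal proteins, the counterparts in the other ribosome of the cell, 9 were higher and 6 lower of 77 tested in the hippocampus and 17 higher and 4 lower of 76 in the frontal cortex, with median changes of 0.011 and 0.063. Mrps28 and Mrps26 had the largest changes in the hippocampus (-0.43 and -0.41), and Mrpl32 and Mrps33 in the frontal cortex (0.43 and 0.34).

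**Figure D5:**
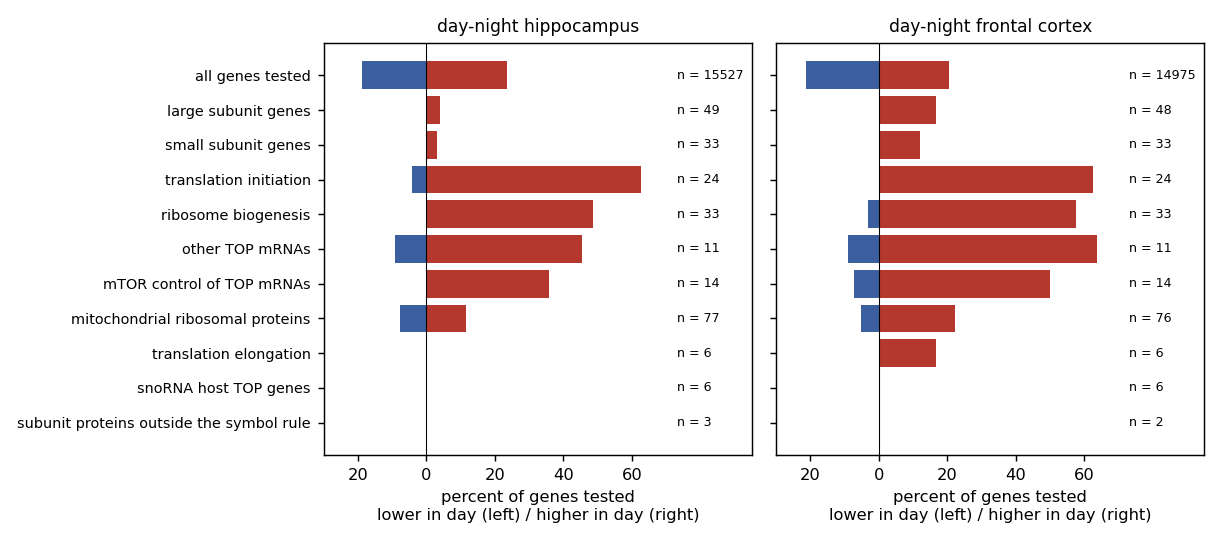
Percent of the genes tested that were higher (red, right) or lower (blue, left) in day by the edgeR test, for all genes, the 2 subunits and the gene lists, in the hippocampus and the frontal cortex, with the number tested beside each bar. Initiation and biogenesis genes reach 15 of 24 and 16 of 33 higher in the hippocampus, against 2 of 49 large and 1 of 33 small subunit genes.

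The second comparison asked whether the regions differed, averaged over the phases. Of 82 members, 17 were higher in the hippocampus and 0 lower, 10 of 49 from the large and 7 of 33 from the small subunit. The background was 10.4% of 16069 genes higher and 6.17% lower. The median log2 difference, hippocampus minus frontal cortex, was 0.058 over the large subunit and 0.076 over the small subunit genes, against -0.0046 over all genes, and 63 of 82 were positive. At an unadjusted p under 0.05 there were 28 higher and 0 lower, and DESeq2 called 15. Of the 17, Rpl18 alone was also past a day-night test. The study's methods describe dissection of both regions, and no source says whether their libraries share animals. The fit took the 64 libraries as separate, so its p-values leave out any pairing by animal, as do those of the third comparison. Over 32 pairs of libraries alike in phase, condition and number, deviations from the group means correlated between -0.60 and 0.63 (median -0.0059).

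Rps28, one of the smallest proteins of the small subunit, differed most. Over 32 hippocampal libraries its level ran from 11.5 to 22.1 CPM with a median of 15.3, and over 32 cortical libraries from 8.69 to 22.0 with a median of 12.4. The ranges overlapped, and the log2 difference was 0.31 (SE 0.064, adjusted p = 0.000199). Rps14 had medians of 65.3 (35.7 to 89.3) and 53.3 CPM (37.4 to 86.9), a difference of 0.23 (SE 0.062, adjusted p = 0.00621). Rps29, a small zinc-binding protein, had 34.3 (17.6 to 56.4) and 27.7 CPM (18.8 to 52.5), a difference of 0.21 (SE 0.077, adjusted p = 0.0498). It did not pass with DESeq2 (adjusted p = 0.053) or with size factors by the median of ratios (0.060).

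In the large subunit Rpl38, a small protein known for its part in the translation of Hox mRNAs in the embryo, differed most. It had a median of 11.97 CPM in the hippocampus (6.32 to 16.3) and 9.18 in the frontal cortex (6.22 to 15.3), a log2 difference of 0.30 (SE 0.080, adjusted p = 0.00585). Rpl36 had 20.8 (11.4 to 24.9) and 17.4 CPM (12.8 to 25.1), a difference of 0.23 (SE 0.054, adjusted p = 0.00177). Rpl39, which lines the tunnel through which the new peptide leaves, had 14.8 (8.24 to 21.3) and 12.4 CPM (7.61 to 18.9), a difference of 0.20 (SE 0.066, adjusted p = 0.0248). In each case the regions overlapped over most of their range. The other genes past the test, Rps13, Rps15, Rps26, Rps27, Rpl11, Rpl12, Rpl15, Rpl17, Rpl18, Rpl28 and Rpl36a, lay between 0.13 and 0.21.

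The region count depended on single sets of libraries and on scaling, and among the 6 genes described Rps28 alone kept its call without each number in turn. Without the libraries numbered 2, 3 or 4 it fell to 2, 4 and 4 members (2.44%, 4.88% and 4.88%), below the 3.91%, 5.51% and 6.12% of all genes higher in the same fits. Without those numbered 1 it was 16 (19.5% against 13.8%). On the libraries numbered 4 alone 0 members and 0 of 15911 genes passed, with 7 members at an unadjusted p under 0.05. Library totals alone gave 1 member higher and 5 lower in the hippocampus, with the median of all genes at -0.11 and that of the members 0.061 above it. Choroid plexus markers differed between the regions in the same direction, 8 of 8 higher in the hippocampus, where 3 of 10 neuronal, 4 of 10 border macrophage and 3 of 16 microglia markers were lower. Neutrophil and monocyte markers, from cells that also carry CD11b, were lower in the hippocampus in 5 of 5 tested, with a median difference of -0.79 and a summed level of 10.3 to 35.9 CPM there and 12.9 to 132 in the frontal cortex. Astrocyte markers were lower in 3 and higher in 1 of 8, oligodendrocyte markers higher in 2 of 9, and endothelial markers past the test in 0 of 8. Their part in these values was not tested.

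The third comparison tested whether the day-night change itself differed between the regions. Of 82 members 0 passed, against 1.19% of 16069 genes. The difference, hippocampal minus cortical change, had a median of -0.14 over the large and -0.13 over the small subunit genes, and 79 of 82 members were negative, with a median SE of 0.1004. At an unadjusted p under 0.05 there were 12 of 82 members (14.6%), all negative, against 9.88% of all genes, and DESeq2 called 0. The lowest p belonged to Rps15a, with -0.050 (SE 0.043) in the hippocampus and 0.062 (SE 0.043) in the frontal cortex, a difference of -0.15 (SE 0.059, adjusted p = 0.25). The calls made in 1 region only are therefore not shown to differ from the other region.

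The last comparisons concerned the 4 conditions. Averaged over the phases, 0 of 82 members differed among conditions in either region, as did 0% of 16826 genes in the hippocampus and 0% of 16238 in the frontal cortex. At an unadjusted p under 0.05 there were 5 members in the hippocampus (6.10%) and 1 in the frontal cortex (1.22%), against 6.50% and 6.74% of all genes, and DESeq2 called 0 in both. Rpl26 had the lowest p in the hippocampus (adjusted p = 0.67), with medians over 8 libraries of 48.4 CPM in Soci, 57.4 in Cogn, 59.6 in Ctr0 and 57.0 in Ctr1. Rps15 had the lowest in the frontal cortex (adjusted p = 0.72), with 32.9 in Soci, 36.7 in Cogn, 30.7 in Ctr0 and 31.99 in Ctr1. The ranges of the 4 conditions overlapped for both genes. With library totals alone, 26 members and 3814 of all genes were called among the hippocampal conditions.

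A difference of the day-night change among the 4 conditions was tested in the same fits. In the hippocampus 0 of 82 members and 0% of 16826 genes passed. At an unadjusted p under 0.05, however, there were 24 of 82 members (29.3%) against 695 of all genes (4.13%), 14 from the large and 10 from the small subunit. Rps27a, named for its role as a ubiquitin fusion, was 1 of the 24 (adjusted p = 0.999). In Ctr1 its 4 night libraries held 49.4, 53.1, 55.7 and 48.3 CPM and its 4 day libraries 29.5, 35.1, 39.1 and 39.2, which did not overlap. In Soci the night libraries held 36.0, 43.7, 30.5 and 39.8 and the day libraries 51.0, 47.8, 33.0 and 37.7, which did. The Cogn libraries held 45.3, 47.4, 37.3 and 45.5 by night and 50.3, 52.7, 40.4 and 39.6 by day, and the Ctr0 libraries 47.9, 40.03, 35.2 and 50.6 by night and 44.1, 37.7, 45.1 and 55.8 by day.

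For Rps27a and for the sums over each subunit, the mean CPM of Ctr1 was the highest of the 4 hippocampal conditions by night and the lowest by day. As a share of all counts, without TMM, both sums were lowest in Ctr1 in both phases. Its large subunit share was 0.189% by night and 0.154% by day. Gm26917 took 43.1% and 44.1% of its counts, the most of the 4 conditions in each phase. The members share most of their spread, so the 24 genes are not separate observations. Their number was 1 without the libraries numbered 1, 5 without those numbered 2, 37 without those numbered 3 and 27 without those numbered 4, and 3 with library totals alone. The cortical fit passed 0 of 82 members, against 0.00616% of 16238 genes, which is 1 gene, and 0 had an unadjusted p under 0.05. DESeq2 called 0 members in both regions. Rpl24 had the lowest p there (adjusted p = 1), at 0.637 CPM per kb the faintest member tested.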

How the data were processed

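The authors depleted ribosomal RNA, sequenced single-end libraries, mapped reads with STAR 2.7.3a to GRCm38.p5 and assigned them to genes with featureCounts of Subread 2.0.0; the deposited values are raw counts per gene. The strand setting and the treatment of multi-mapping reads are not given in the sources used here. Groups and replicate numbers come from the sample titles.

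Counts were tested in edgeR 4.0.16 (R 4.3.3) by its quasi-likelihood test after filterByExpr and TMM, within each region (32 libraries) for phase and conditions and over 64 libraries for region. P-values were adjusted by Benjamini-Hochberg over all genes tested, with a threshold of 0.05. An SE is the size of the log2 change over the root of the F statistic. Log2 CPM used a prior count of 2. Levels share 1 scale over 64 libraries, while fits scale their own libraries. The depth, 10156071 to 84472229 counts a library, limits faint members, and intervals and floors cover counting error only. Results of some genes are not reported here. Named genes were fixed by role, by copy, by level per length, by the 3 largest calls per subunit (average log2 CPM of at least 2) and by lowest p. The members, lists and rules were chosen with earlier results of these data known. Scripts were tested on simulated data. Alternatives, with DESeq2 1.42.0 among them, are given in the closing section. Fits on libraries numbered 4 alone, in the day-night and region comparisons, were added after seeing the data. The replicate numbers were not taken as pairs: deviations of same-numbered day and night libraries correlated between -0.52 and 0.63 over genes.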

Additional observations from a re-analysis of the deposited data

Results flagged for a closer look

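In groups of 4, a library was singled out when its gap to the nearest of the others, over the range of the group, exceeded Dixon's critical value. Of 48 checks (16 groups, 2 sums and their ratio), 5 exceeded it, where chance gives about 2.4. The 2 sums rise and fall together, and each library flagged in 1 sum was flagged in the other. The checks are thus not separate, and 5 against 2.4 does not show an excess. In Frontal_cortex Night Ctr0, library 4 held 2169 CPM of large subunit and 1489 CPM of small subunit genes, while the other libraries reached at most 1764 and 1175 CPM. In Hippocampus Night Cogn, library 3 held 1846 and 1259.8 CPM, below the 2053 and 1402 CPM of the next. In Hippocampus Night Ctr1, library 3 had a small to large ratio of 0.724, against 0.681 to 0.684 in the other libraries. These libraries were kept in every comparison, and the fits that leave out their numbers are given with the other alternatives.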

How the results depend on the processing

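Counts of members called depended on scaling and on the libraries taken. With library totals alone, 0 were higher and 9 lower in day in the hippocampus, 0 higher in the frontal cortex, 1 higher and 5 lower in the hippocampus than in the frontal cortex, and 26 called among hippocampal conditions; the hippocampal medians were -0.14 for both subunits. Genes lower in day in the hippocampus numbered 1 with size factors by the median of ratios, 2 with genes over 1% of counts left out before scaling and 2 with DESeq2. That exclusion gave 9 members higher in the hippocampus by region. Without a count filter, 7 were higher in day in the frontal cortex and 9 higher by region. Leaving out each replicate number in turn gave 1 to 3 higher and 0 to 3 lower in the hippocampus by day, 2 to 33 higher in the frontal cortex and 2 to 16 higher by region. On the libraries numbered 4 alone, 0 were higher in day in either region and 0 by region, with medians of -0.14 (small subunit, hippocampus), -0.11 (large, frontal cortex) and -0.11 (small, frontal cortex). The cause of these changes was not tested. A replicate block gave 2 members higher in the hippocampus, 14 in the frontal cortex and 18 by region; of the genes reported here as the largest calls of a subunit, none lost its call under the block. The numbers are not shown to pair libraries: same-numbered day and night libraries correlated at -0.52, -0.024, -0.42 and 0.050 in the hippocampus and 0.63, -0.14, 0.42 and -0.16 in the frontal cortex. The tests of the difference between regions and of the conditions in the frontal cortex called 0 members under every alternative run, as did those of the day-night change among conditions.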
